A study of Mus musculus with 6 samples.

Results

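Interferon-stimulated genes, a set of 43 named mouse genes that cells switch on when they sense interferon, were followed in neutrophils taken from liver and from blood. The genes were picked by symbol from the 53090 rows of each expression table; all 43 were found, each with 1 row, and 41 of them had enough counts to be tested among the 13458 rows tested. The study covers 6 libraries of total RNA, 3 of liver neutrophils and 3 of blood neutrophils. Every mouse had been fed for 1 week a diet with 3,5-diethoxycarbonyl-1,4-dihydrocollidine (DDC), a compound used to injure the bile ducts. The diet is therefore common to both groups, and no library comes from an animal on a control diet. The sources used here give no strain, sex or age, and do not say that a liver and a blood library with the same number came from 1 mouse. Cells were picked from both tissues with magnetic beads against Ly6G, a surface protein of mouse neutrophils, but the 2 preparations differed. The liver suspension first passed a Percoll density gradient, whereas the blood had its red cells lysed, so tissue and preparation cannot be told apart. Each library held between 13054673 and 17579669 expected counts, and 3 counts, the limit that a count of 0 allows, correspond to between 0.18 and 0.262 CPM, the usual depth-scaled count, here on library sizes corrected by TMM (the trimmed mean of M-values).

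Interferons are cytokines that bind receptors on nearly all cells. Type I and type III interferons act through the kinases JAK1 and TYK2 and a complex that holds STAT2 and IRF9 and binds a DNA motif called the interferon-stimulated response element (ISRE). Type II interferon, made mainly by lymphocytes, leads to binding at the gamma-activated site (GAS). The genes switched on in this way encode proteins that sense viral nucleic acid, block viral replication, attack membranes around microbes in the cell, or damp the response. Neutrophils carry these receptors, and their levels of interferon-stimulated genes are known to vary with infection and inflammation.

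RefSeq promoters (GRCm38.p6), read over the 250 bases before the start site, were matched by symbol for 32 of the 43 genes; Dhx58, Ifi204, Rtp4, Zbp1, Iigp1, Mx1, Parp14, Usp18, Mx2, Oas2 and Ifi27l2a had no entry. The ISRE core GAAANNGAAA, searched on both strands (the other strand reads TTTCNNTTTC), was present in 18 of the 32 genes (56.2%) and in 936 of all 27025 genes of the table (3.46%; 2.98% of its 32851 promoters, some genes having several). The GAS letters TTCNNNGAA, which read the same on both strands, were present in 9 of the 32 (28.1%) and in 8.13% of all genes. Matches to the ISRE core were found in all 4 guanylate-binding protein genes, in 3 of 4 immunity-related GTPase genes with an entry, in 3 of 4 IFIT genes and in 3 of 5 OAS genes, and in 0 of 3 nucleic acid sensor genes. A match is a description of the letters only. The stretches below, each 100 bases written 5′ to 3′ on the strand of the gene, belong to the genes whose levels passed the test and have an entry with an ISRE core, and to Isg15 and Ifit3 for comparison; capitals mark the ISRE core and, in Gbp7, Igtp, Irgm2 and Bst2, also the GAS letters. They lie at chr4:156200837-156200936, minus strand (Isg15), chr19:34583344-34583443, plus strand (Ifit3), chr19:34607740-34607839, plus strand (Ifit3b), chr3:142530211-142530310, plus strand (Gbp7), chr11:48871421-48871520, minus strand (Irgm1), chr11:58199456-58199555, plus strand (Igtp), chr11:58214862-58214961, plus strand (Irgm2) and chr8:71537549-71537648, minus strand (Bst2).
Isg15: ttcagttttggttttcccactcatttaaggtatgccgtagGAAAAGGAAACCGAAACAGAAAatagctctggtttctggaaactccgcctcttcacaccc
Ifit3: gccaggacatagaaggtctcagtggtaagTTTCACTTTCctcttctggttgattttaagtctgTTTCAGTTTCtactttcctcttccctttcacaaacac
Ifit3b: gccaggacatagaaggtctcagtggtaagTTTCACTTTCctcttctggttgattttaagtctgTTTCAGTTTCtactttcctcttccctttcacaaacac
Gbp7: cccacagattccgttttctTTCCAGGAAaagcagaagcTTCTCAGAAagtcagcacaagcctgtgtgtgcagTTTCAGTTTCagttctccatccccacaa
Irgm1: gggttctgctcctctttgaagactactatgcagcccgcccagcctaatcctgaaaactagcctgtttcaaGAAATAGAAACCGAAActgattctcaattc
Igtp: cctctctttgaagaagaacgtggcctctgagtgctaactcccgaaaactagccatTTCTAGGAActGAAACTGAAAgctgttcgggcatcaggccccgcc
Irgm2: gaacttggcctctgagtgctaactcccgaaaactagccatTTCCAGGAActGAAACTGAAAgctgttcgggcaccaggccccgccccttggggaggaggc
Bst2: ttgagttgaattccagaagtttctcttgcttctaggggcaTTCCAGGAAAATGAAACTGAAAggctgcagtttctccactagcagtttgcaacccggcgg
In Isg15, 3 matches to the core overlap in a row. The stretches of Ifit3 and Ifit3b, at positions 32 bases apart relative to their start sites, are identical over all 100 bases. Those of Igtp and Irgm2, neighbours on chromosome 11, differ at 6 of 100 positions once shifted by 30 bases, and both have a GAS match just before the ISRE core. In Bst2 the GAS letters overlap the ISRE core.

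The sort was checked first. All 12 neutrophil markers, among them Ly6g, S100a8, S100a9, Csf3r and Cxcr2, were detected in every library, with a summed level of 8766 to 14840 CPM in liver and 23060 to 34930 CPM in blood. Of the 12, 10 were lower in liver (edgeR quasi-likelihood test, adjusted p under 0.05). Markers of other cells differed as well: 7 of 10 monocyte markers (sum 2221 to 3479 CPM in liver, 578 to 878 CPM in blood), 5 of 11 tested Kupffer cell and macrophage markers (185 to 482 against 41.1 to 177 CPM), 6 of 7 tested hepatocyte markers (270 to 495 against 108 to 151 CPM), 5 of 6 tested liver endothelial markers (30.4 to 56.7 against 16.1 to 20.4 CPM) and 3 of 5 tested plasmacytoid dendritic cell markers (157 to 177 against 114 to 157 CPM) were higher in liver. Lower in liver were 4 of 8 platelet markers, 2 of 8 B cell markers and 2 of 2 biliary markers. Summed erythroid markers ran from 142.5 to 2723 CPM in liver and from 366 to 33610 CPM in blood. In bulk RNA of this kind, fewer cells of a type and less RNA per cell cannot be told apart. The part of these other cells in the results below was not tested, and p-values measure only the spread between these samples.

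Levels of most interferon-stimulated genes overlapped between liver and blood neutrophils: for 33 of the 41 tested genes the ranges of the 3 liver and the 3 blood libraries shared values. The test between tissues was passed by 8 of the 41 tested genes, 3 higher in liver (Mx1, Mx2 and Bst2) and 5 lower in liver (Irgm2, Igtp, Irgm1, Gbp7 and Ifit3b). In the whole table the same rule called 17.4% of the tested rows up in liver and 14.2% down. Neither count therefore exceeds the share of the whole table. Of the 41 genes, 12 had an unadjusted p under 0.05. All 4252 called rows among the 13458 tested also had an unadjusted p under 0.05. The share of 12 in 41 therefore did not exceed that of all rows either. By values alone, the 3 liver libraries all lay above the 3 blood libraries for 3 genes (25.8% of all rows) and all below for 5 genes (22.7% of all rows): Irgm2, Igtp, Irgm1, Gbp7 and Cmpk2. A negative log2 fold change, that is a lower fitted level in liver, was found for 32 of 41 genes (78.0%, against 48.4% of all rows), with a median of -0.48 (all rows 0.04). Without blood library 2, which was high for most of these genes, 19 of the tested genes had a negative value and the median was 0.0036. Without liver library 2, the high one in liver, the median was -0.89, and without both of these libraries 27 genes were negative and the median was -0.39.

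**Figure D1:**
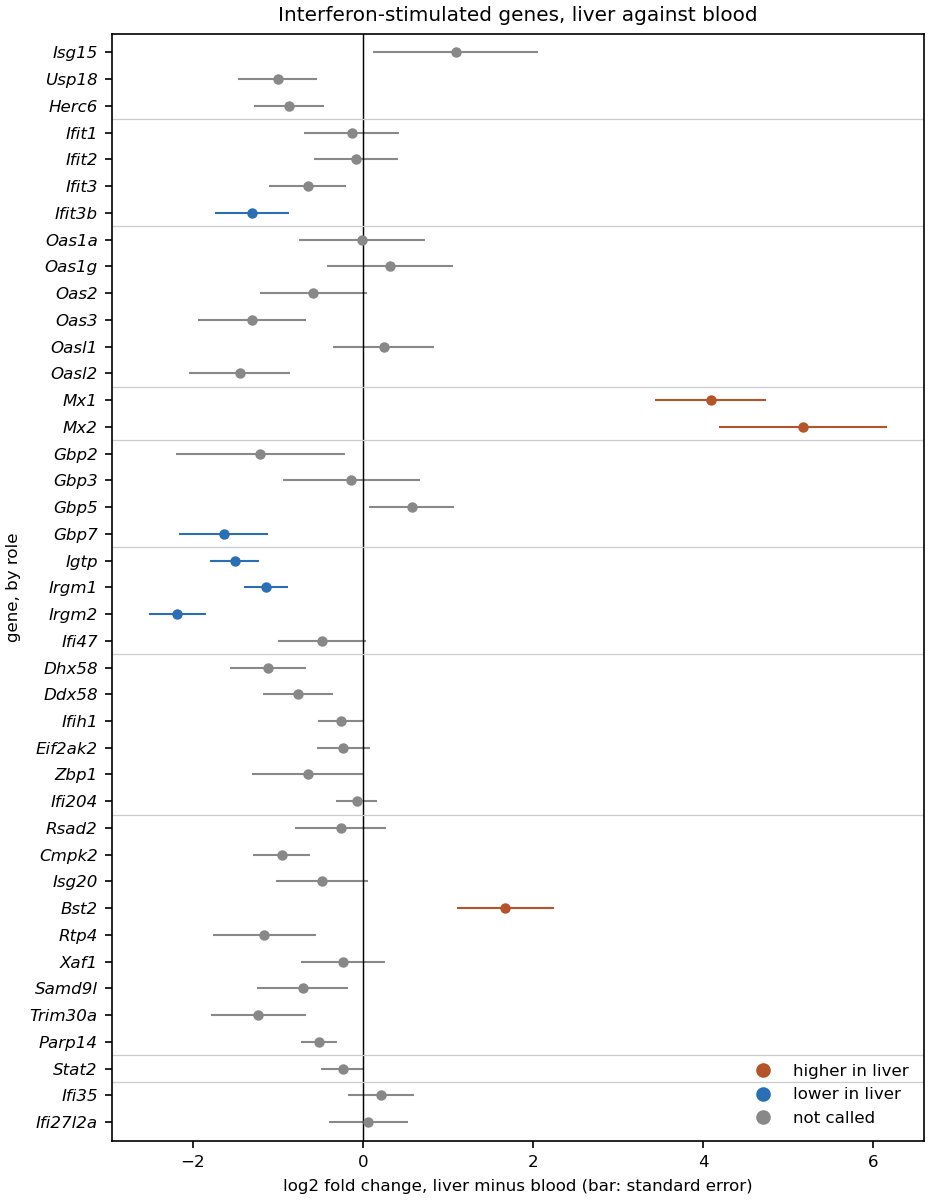
Log2 fold change of liver against blood for the 41 tested interferon-stimulated genes, grouped by role, with the standard error as bar and colour for genes that passed the test at an adjusted p of 0.05. Mx1 and Mx2 stand at 4.09 and 5.17, Irgm2 at -2.18, and the 33 genes that did not pass lie between -1.45 (Oasl2) and 1.09 (Isg15).

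In each tissue the library numbered 2 had the highest level of most of these genes. Of the 41 tested genes, 33 had their highest liver level in liver library 2 (80.5%, against 33.5% of all rows) and 36 had their highest blood level in blood library 2 (87.8%, against 33.6%). For 30 genes both held (73.2%, against 15.6% of all rows), and 38 were lowest in blood library 3 (92.7%, against 32.7%). In liver the lowest library was less uniform, liver 3 for 22 genes and liver 1 for 18. Summed over the 43 genes, the level was 1211, 2223 and 970 CPM in liver libraries 1, 2 and 3, and 2144, 4092 and 1444 CPM in blood libraries 1, 2 and 3. Both second libraries were therefore highest in their tissue, while the sum of liver 2 still lay above those of blood 1 and blood 3.

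The median distance from the mean of the own tissue, on the scale log2(CPM + 0.5), was -0.23, 0.64 and -0.39 in liver libraries 1, 2 and 3 and -0.12, 0.74 and -0.58 in blood libraries 1, 2 and 3; over all rows it ran from -0.0101 to 0.0129 over the 6 libraries. The highest of 3 libraries exceeded the lowest by a median of 2.52-fold in liver and 2.88-fold in blood (40 genes with counts in all blood libraries), against 1.64-fold and 1.63-fold over all rows with counts. The IFIT and ISG15 groups had no exception, with the second library highest in both tissues for all 7 genes. In blood the 5 exceptions were Mx1, Mx2, Igtp, Irgm2 and Bst2, all highest in library 1. Mx1 had only 9, 5 and 3 counts in blood libraries 1, 2 and 3 and Mx2 only 3, 0 and 0, so their order in blood is not firm. In liver Oas1g, Gbp5 and Xaf1 were highest in library 1, and Mx1, Mx2, Dhx58, Ifi204 and Stat2 in library 3. Beside this, neutrophil markers were highest in liver 2 for 7 of 12 and in blood 2 for 9 of 12, B cell markers were highest in blood 2 for 8 of 8 (sums 134.5, 271 and 56.3 CPM in blood libraries 1 to 3), and erythroid markers were highest in liver 2 for 6 of 7; their part in the spread was not tested.

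**Figure D2:**
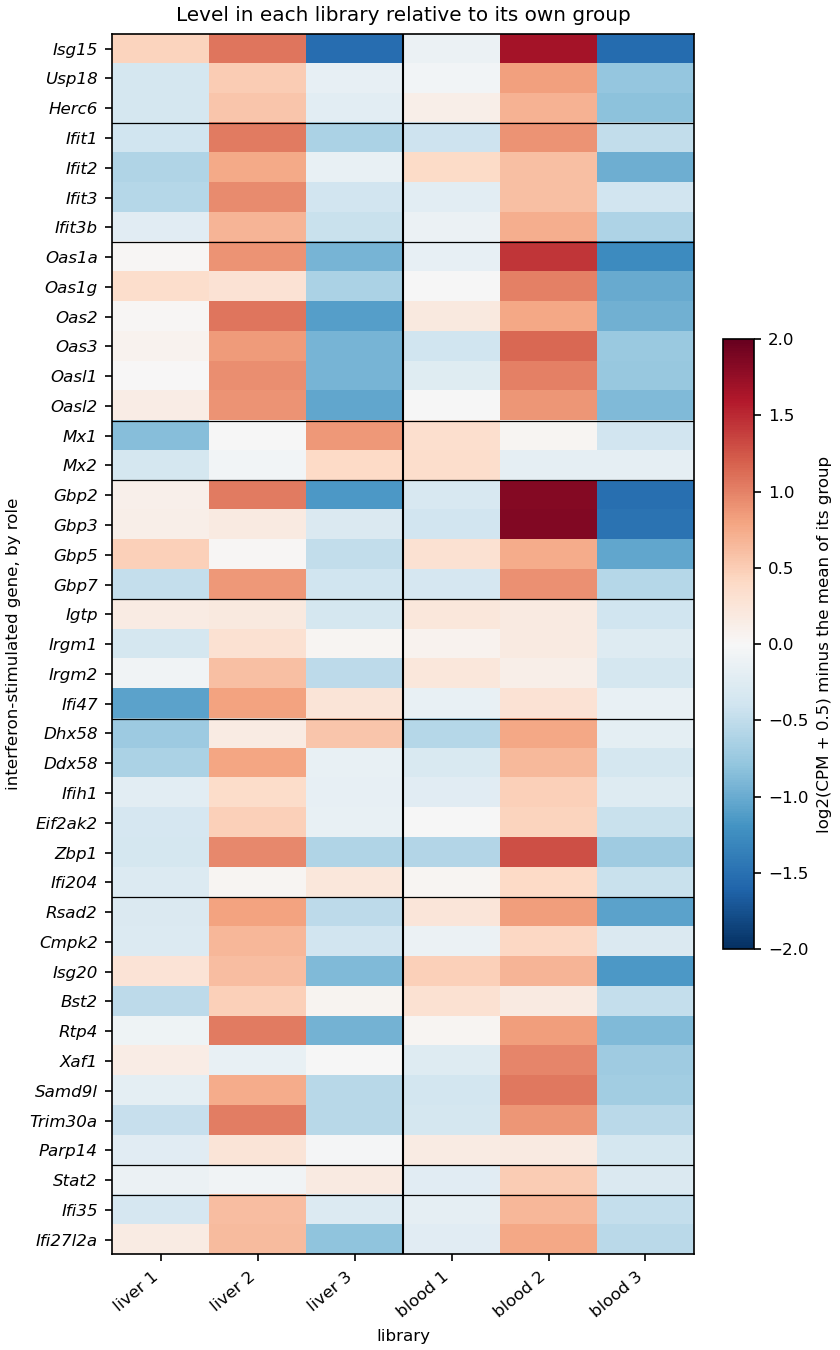
Heat map of 41 interferon-stimulated genes (rows, by role) in 6 libraries (columns); colour gives log2(CPM + 0.5) minus the mean of the 3 libraries of the same tissue. The columns of liver 2 and blood 2 are mostly red and that of blood 3 mostly blue. The MX genes, which had few counts in blood, are an exception.

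**Figure D3:**
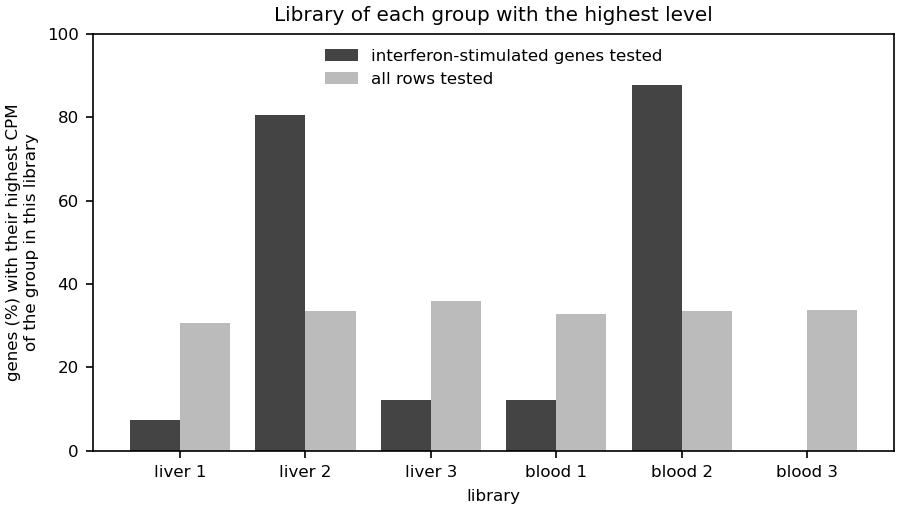
Share in percent of genes whose highest level in their tissue lies in each library, for the 41 tested interferon-stimulated genes (dark bars) and all 13458 rows tested (light bars). The dark bars reach 80.5% in liver 2 and 87.8% in blood 2 and 0% in blood 3, while the light bars stay between 30.6% and 35.9%.

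Per kilobase of exon, a scale on which genes can be compared, Trim30a was the most abundant of the 43 genes in blood (mean level 86.1 CPM per kb), followed by Oasl2 (67.4), Isg20 (36.3), Oas3 (33.6) and Samd9l (32.9). In liver Isg15 led with 47.0 CPM per kb, followed by Trim30a (36.8), Isg20 (26.1), Ifi27l2a (25.3) and Oasl2 (24.7). The libraries of these genes overlap widely, so the order among neighbours is not firm. At the low end in both tissues were Mx2, Iigp1 and Ifi44.

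ISG15 is a ubiquitin-like protein that is attached to other proteins, USP18 removes it and restrains the receptor, and HERC6 is the mouse ligase that attaches it. Isg15 was at 38.0, 59.2 and 9.37 CPM in liver libraries 1, 2 and 3 and at 10.2, 36.4 and 3.55 CPM in blood libraries 1, 2 and 3. The liver libraries ran 6.32-fold from lowest to highest and the blood libraries 10.3-fold, and the tissues overlapped. The log2 fold change of Isg15 was 1.09 ± 0.97 (SE, n = 3 and 3; edgeR adjusted p = 0.438). Usp18 was at 4.04, 7.75 and 4.68 CPM in liver and at 9.53, 17.9 and 5.62 CPM in blood, in the same order of libraries, with overlap (log2 fold change -1.0002 ± 0.46, edgeR adjusted p = 0.124; 0.0446 without blood 3). Herc6 overlapped too, at 9.63, 18.5 and 10.6 CPM in liver and 23.4, 35.3 and 12.1 CPM in blood (edgeR adjusted p = 0.135; 0.0357 without blood 3). By edgeR, DESeq2 and limma-voom on the same filtered rows 0 of these 3 genes passed the test, and 0 had an unadjusted p under 0.05 by edgeR. Without the filter on low counts Usp18 and Herc6 passed as lower in liver (edgeR adjusted p = 0.0494 and 0.0261).

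IFIT proteins bind foreign RNA at its 5′ end and block its translation. Ifit3b was at 6.31, 12.3 and 5.39 CPM in liver libraries 1, 2 and 3 and at 16.9, 30.5 and 11.8 CPM in blood libraries 1, 2 and 3. The highest liver library lay just above the lowest blood library, so the tissues overlapped by that 1 pair. The gene was lower in liver by a log2 fold change of -1.30 ± 0.43 (SE, n = 3 and 3; edgeR adjusted p = 0.0465). The call was lost without liver 1 (adjusted p = 0.138), liver 3 (0.129), blood 1 (0.0632) or blood 2 (0.163). Ifit3, its neighbour, was at 8.79, 26.0 and 10.1 CPM in liver and 19.1, 34.1 and 17.1 CPM in blood, which overlap (log2 fold change -0.65 ± 0.45, edgeR adjusted p = 0.305; 0.0346 without liver 2). Of the 50-base words of the 2 genes, 51.2% of those in Ifit3 and 44.95% of those in Ifit3b also occur in another gene, so counts shared out between them are uncertain. Ifit1 (8.60 to 28.4 CPM in liver, 10.8 to 29.4 CPM in blood) and Ifit2 (5.86 to 15.8 and 4.55 to 14.7 CPM) covered nearly the same range in both tissues.

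OAS proteins make an oligoadenylate messenger that activates an RNA-degrading enzyme when they meet double-stranded RNA; the OAS-like proteins have the same fold. By edgeR 0 of the 6 genes passed the test and 1 had an unadjusted p under 0.05. DESeq2 called 2 lower (Oas3 and Oasl2) and limma-voom 0. Oasl2 was at 152, 254 and 66.3 CPM in liver libraries 1, 2 and 3 and at 379, 704 and 205 CPM in blood libraries 1, 2 and 3. Only liver 2 reached into the blood range, and the log2 fold change was -1.45 ± 0.59 (SE; edgeR adjusted p = 0.106; 0.0447 without blood 3). Oas3 was at 89.3, 155 and 44.4 CPM in liver and 151, 443 and 119 CPM in blood, again with liver 2 inside the blood range (-1.31 ± 0.64, edgeR adjusted p = 0.164). Oas2 (30.5 to 139 CPM in liver, 53.8 to 180 CPM in blood), Oasl1 (21.04 to 77.8 and 20.02 to 69.3 CPM), Oas1a (5.00 to 19.0 and 3.28 to 23.7 CPM) and Oas1g (1.03 to 2.54 and 0.402 to 3.15 CPM) overlapped between tissues. Oas1a and Oas1g share sequence with each other (57.6% and 45.7% of their 50-base words occur in another gene), so the division of counts between them is uncertain.

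MX proteins are dynamin-like GTPases that trap viral ribonucleoprotein, MX1 in the nucleus and MX2 in the cytoplasm of mouse cells. The gene annotation lists Mx2 as a polymorphic pseudogene, a gene intact in only some animals. No strain is given, so for neither Mx1 nor Mx2 do the RNA levels tell whether working protein was made. Mx1 (chr16:97447035-97462907, GRCm38, minus strand) was at 3.39, 6.49 and 12.2 CPM in liver libraries 1, 2 and 3 and at 0.645, 0.437 and 0.201 CPM in blood libraries 1, 2 and 3. Mx2 (chr16:97535308-97560900, plus strand) was at 2.15, 2.76 and 3.98 CPM in liver and at 0.215, 0 and 0 CPM in blood, in the same order. For both genes every liver library lay above every blood library, and liver library 3 was the highest.

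Mx1 was higher in liver by a log2 fold change of 4.09 ± 0.65 (SE, n = 3 and 3; edgeR adjusted p = 0.0020), on 351 liver counts and 17 blood counts, a ratio of 17.5 (exact 95% interval 10.8 to 30.4, counting error only). Mx2 rose by 5.17 ± 0.99 (edgeR adjusted p = 0.0044), on 141 against 3 counts, a ratio of 39.8 (13.4 to 195.5). All 3 of those blood counts were in blood 1, so the size of the Mx2 difference is poorly fixed. Without blood 1 it was at least 26.1-fold higher in liver (3 counts over the group as the floor), and without any 1 of the other libraries the log2 fold change was 4.55 to 5.35. Both calls held in all 16 alternative settings. Of their 50-base words, 3.91% in Mx1 and 4.38% in Mx2 occur in another gene, most often in each other. Of the 11 hepatocyte markers, 9 followed the same order of liver libraries, among them albumin (Alb) at 7.23, 73.0 and 148 CPM. The other two did not: Fgb was highest in liver 2 (0.586, 11.1 and 6.16 CPM) and Trf, the most abundant of the list, was lowest there (254, 175 and 255 CPM). Liver 3 was also the highest for summed Kupffer cell and macrophage markers (264, 185 and 482 CPM in liver libraries 1, 2 and 3). The same held for summed liver endothelial markers (51.4, 30.4 and 56.65 CPM), whereas summed monocyte markers were highest in liver 1 (3479, 2221 and 2754 CPM). The part of RNA from hepatocytes or these other cells in the MX levels was not tested. Even so their liver levels were low among the 43 genes, 1.95 and 0.82 CPM per kb for Mx1 and Mx2.

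**Figure D4:**
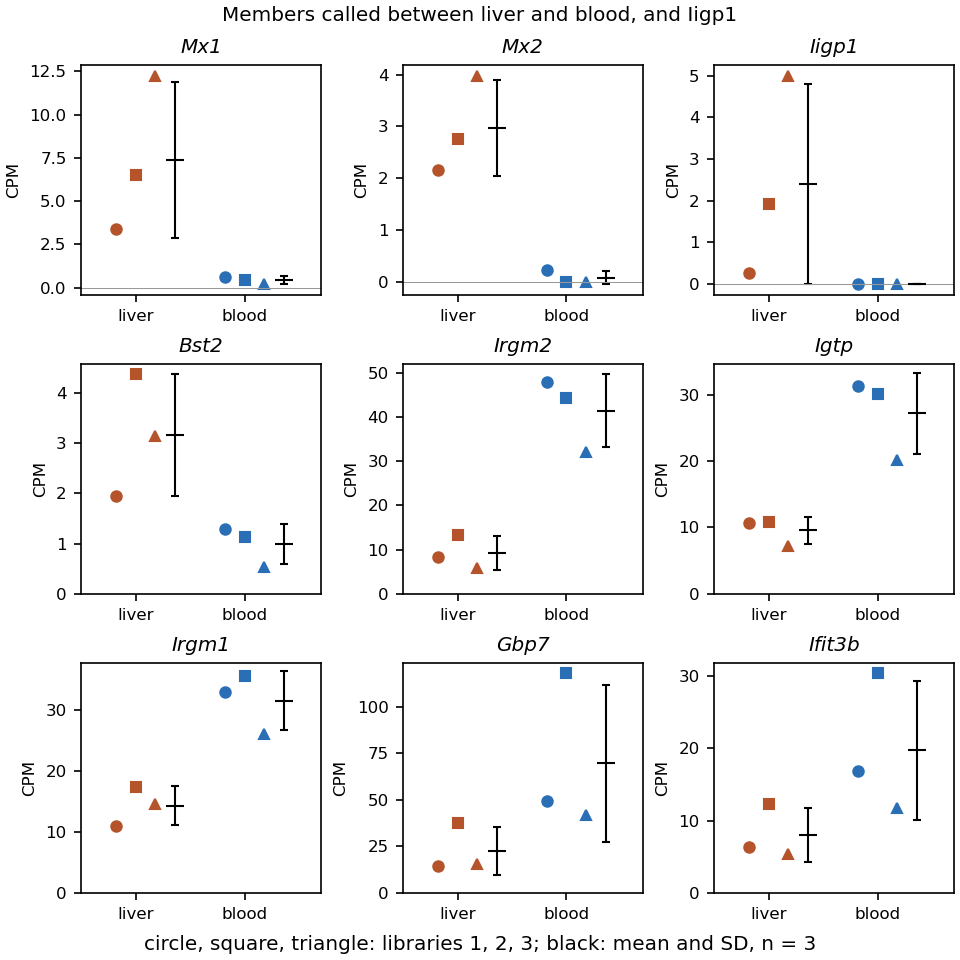
CPM of the 8 genes that passed the test between liver and blood, and of Iigp1, in each library (circle, square and triangle for libraries 1, 2 and 3), with the mean and SD of each tissue in black; each panel has its own linear axis. Mx1, Mx2, Iigp1 and Bst2 are above blood in all 3 liver libraries, Irgm2, Igtp, Irgm1 and Gbp7 below in all 3, and Ifit3b overlaps.

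Immunity-related GTPases load onto membranes around bacteria and parasites inside the cell and break them, and are induced above all by type II interferon. IRGM1, IRGM2 and IGTP (IRGM3) are the regulatory members that keep the effectors inactive on the cell's own membranes, whereas IIGP1 is an effector. The 3 regulators were lower in liver, and theirs were the lower calls among the 41 tested genes that held when any 1 library was left out. Irgm2 (chr11:58199618-58222782, plus strand) was at 8.203, 13.4 and 5.84 CPM in liver libraries 1, 2 and 3 and at 47.9, 44.4 and 32.1 CPM in blood libraries 1, 2 and 3. Igtp (chr11:58199556-58207591, plus strand) was at 10.6, 10.8 and 7.25 CPM in liver and at 31.3, 30.1 and 20.2 CPM in blood. Irgm1 (chr11:48861968-48871683, minus strand) was at 10.9, 17.4 and 14.5 CPM in liver and at 32.8, 35.5 and 26.0 CPM in blood. For each of the 3 genes the highest liver library lay below the lowest blood library.

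The log2 fold changes were -2.18 ± 0.33 for Irgm2 (4.52-fold higher in blood, edgeR adjusted p = 0.0017), -1.51 ± 0.29 for Igtp (2.84-fold, adjusted p = 0.0044) and -1.14 ± 0.26 for Irgm1 (2.20-fold, adjusted p = 0.0094), each with the SE over 3 and 3 libraries. Igtp and Irgm2 overlap in annotated exons on the same strand (11.8% and 7.8% of their words are shared), so part of their counts could have been given to either. All 3 calls held when any 1 library was left out; that of Irgm1 was lost only when liver 3 and blood 1 were left out together (adjusted p = 0.0546). Ifi47, another member of this family, was at 1.37, 6.31 and 4.17 CPM in liver and at 4.87, 6.82 and 4.89 CPM in blood and did not pass (edgeR adjusted p = 0.51).

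Iigp1 went the other way. It was at 0.26, 1.92 and 5.00 CPM in liver libraries 1, 2 and 3 and had 0 counts in all 3 blood libraries, and its low counts kept it out of the main test. With 114 liver counts, it was at least 32.2-fold higher in liver, taking 3 counts over the blood group as the floor. Liver 3 held 78 of those counts, and without it Iigp1 was at least 15.1-fold higher. Liver 1 held little more than the floor for that library (0.195 CPM). The liver libraries stood in the same order as for the 9 hepatocyte markers above. Summed Kupffer cell and macrophage markers were highest in liver 3 too, and the part of any of these cells was not tested. Among the family members of the set, then, the 3 regulators were lower in liver and Ifi47 did not pass. Detection in liver alone at this depth was a pattern of Iigp1 only. Tgtp1 and Tgtp2, related genes outside the set, had counts in both tissues and did not pass (edgeR adjusted p = 0.926 and 0.42).

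Guanylate-binding proteins are large GTPases that coat and break open the compartments of microbes and feed inflammasome activation. Gbp7 (chr3:142530342-142550149, plus strand) was at 14.5, 37.5 and 15.2 CPM in liver libraries 1, 2 and 3 and at 49.0, 118 and 41.5 CPM in blood libraries 1, 2 and 3. The liver libraries were all below the blood libraries, though liver 2 and blood 3 lay close. Gbp7 was lower in liver by -1.63 ± 0.52 on the log2 scale (SE, n = 3 and 3; edgeR adjusted p = 0.0487), and the call was lost without liver 1 (adjusted p = 0.14), liver 3 (0.156) or blood 2 (0.107). An annotated gene, Gm43802, overlaps its exons on the same strand and shares 12.7% of its words.

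Gbp2 and Gbp3 had the widest spread in blood. Gbp2 was at 35.0, 157 and 14.998 CPM in blood libraries 1, 2 and 3, and at 26.9, 52.0 and 11.0 CPM in liver. Gbp3 was at 5.16, 26.2 and 2.14 CPM in blood, a 12.2-fold range, and at 10.9, 11.4 and 8.08 CPM in liver. Blood 2 stood above every other library for both genes, and neither passed the test (edgeR adjusted p = 0.407 and 0.917). Gbp3 turned from -0.13 to 1.45 on the log2 scale when blood 2 was left out (adjusted p of at least 0.0524 in all alternatives). Gbp5, which supports inflammasome assembly, was at 5.58 to 11.4 CPM in liver and 2.14 to 8.56 CPM in blood.

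Of the 6 genes that sense or respond to nucleic acid in the cell, 0 passed the edgeR test and 1 had an unadjusted p under 0.05. DESeq2 called 1 (Dhx58) and limma-voom 0. All 6 had a negative fitted log2 fold change (-1.12 to -0.07). Ddx58, which encodes the RNA sensor RIG-I, was at 37.0, 100.4 and 51.8 CPM in liver libraries 1, 2 and 3 and at 82.0, 159 and 79.7 CPM in blood libraries 1, 2 and 3. Liver 2 lay inside the blood range, and the log2 fold change was -0.76 ± 0.41 (SE; edgeR adjusted p = 0.194; 0.032 without liver 2). Dhx58, which encodes the regulator LGP2, was at 4.43, 8.65 and 11.5 CPM in liver and 10.8, 28.3 and 14.3 CPM in blood, with overlap between liver 3 and blood 1 (-1.12 ± 0.45, edgeR adjusted p = 0.0844). Ifih1, which encodes the sensor MDA5, varied little, from 28.2 to 42.6 CPM in liver and from 32.5 to 54.2 CPM in blood. Eif2ak2 (the kinase PKR, 17.3 to 30.8 and 18.7 to 35.3 CPM), Zbp1 (a sensor of left-handed nucleic acid that can start necroptosis, 6.09 to 18.9 and 8.10 to 33.8 CPM) and Ifi204 (a DNA sensor of the p200 family, 62.2 to 88.3 and 57.0 to 103 CPM) overlapped widely. For Ifi204, 20.02% of the words occur in another gene, most often Ifi211.

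Among 9 other antiviral effectors, Bst2 was called higher in liver and 8 genes did not pass. BST2 (tetherin) holds budding virus at the cell surface and is known as a marker of plasmacytoid dendritic cells in the mouse. Bst2 (chr8:71534255-71537456, minus strand) was at 1.95, 4.38 and 3.14 CPM in liver libraries 1, 2 and 3 and at 1.29, 1.14 and 0.536 CPM in blood libraries 1, 2 and 3. All 3 liver libraries lay above blood, by a log2 fold change of 1.68 ± 0.57 (SE, n = 3 and 3; edgeR adjusted p = 0.0494). The call was lost when any 1 library was left out (adjusted p from 0.0525 without liver 1 to 0.163 without liver 2). Beside it, Siglech and Ccr9, which mark plasmacytoid dendritic cells, were at 4.87 to 18.9 CPM and 15.7 to 34.8 CPM in liver and at 0 to 0.573 CPM and 1.27 to 2.08 CPM in blood. A further 2 markers of that list, Cox6a2 and Cd209d, had 0 counts in blood and at most 0.651 CPM in liver. Runx2, the most abundant marker of the list, was at 113 to 132 CPM in liver and 113 to 153 CPM in blood, and Cd300c was at 0.12 to 1.09 and 0.335 to 0.612 CPM. The part of those cells in the level of Bst2 was not tested.

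Cmpk2, a mitochondrial nucleotide kinase, was at 13.9, 27.0 and 12.8 CPM in liver libraries 1, 2 and 3 and at 31.1, 45.4 and 27.5 CPM in blood libraries 1, 2 and 3. Its tissues did not overlap, by a narrow gap between liver 2 and blood 3. It missed the threshold (log2 fold change -0.95 ± 0.33, edgeR adjusted p = 0.0545). It passed in 7 of 16 alternatives, among them DESeq2 (0.0309), limma-voom (0.0442), no filter on low counts (0.00477), without liver 2 (0.0141) and without blood 3 (0.0487). Rsad2, which encodes viperin and lies beside Cmpk2, was at 76.1, 163 and 64.7 CPM in liver and at 125, 189 and 50.2 CPM in blood, with wide overlap (-0.26 ± 0.53). Trim30a, a restrainer of inflammatory signalling, was at 96.2, 268 and 89.4 CPM in liver and at 251, 592 and 219 CPM in blood, where liver 2 alone reached the blood range (-1.23 ± 0.56, edgeR adjusted p = 0.136; 0.0227 without liver 2). Parp14, an ADP-ribosyltransferase, was at 88.6, 124 and 101 CPM in liver and at 165, 167 and 115 CPM in blood (-0.51 ± 0.21, edgeR adjusted p = 0.0948; 0.0457 without blood 3).

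The remaining effectors overlapped between tissues. Samd9l, a translation inhibitor, ran from 69.0 to 171 CPM in liver and from 95.5 to 321 CPM in blood. Rtp4 ran from 13.1 to 53.4 and from 32.6 to 108 CPM, and was called lower without liver 2 (edgeR adjusted p = 0.0488). Isg20, an RNA exonuclease, ran from 23.7 to 68.0 and from 26.2 to 94.5 CPM, and Xaf1, which promotes cell death, from 3.96 to 4.95 and from 2.61 to 9.44 CPM. Stat2, the transcription factor specific to type I and III signalling, was at 35.5, 36.5 and 43.8 CPM in liver libraries 1, 2 and 3. In blood libraries 1, 2 and 3 it was at 37.8, 62.7 and 36.1 CPM, so that only blood 2 stood well apart from the other libraries (edgeR adjusted p = 0.499). Ifi35, a partner of the protein NMI, was at 13.1, 25.9 and 13.7 CPM in liver and at 12.5, 22.8 and 10.04 CPM in blood. It covered nearly the same range in both tissues, as did Ifi27l2a (5.97 to 17.1 and 6.96 to 18.1 CPM). Ifi44 had 8 counts in liver and 1 in blood, too few to test.

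The other genes of the pathway, 92 genes that are not among the 43, gave 14 called higher (17.9%) and 15 called lower (19.2%) of 78 tested, beside 17.4% and 14.2% of all rows. None of the 7 interferon genes looked up stood out, and other interferon genes were not followed. Ifnb1, Ifna1, Ifna2, Ifna4, Ifnl2 and Ifnl3 had 0 counts in every library, which allows up to 0.262 CPM. Ifng was at 0 to 0.77 CPM in liver and 0 to 0.358 CPM in blood. Among receptor chains, the type I pair was higher in liver. Ifnar1 was at 224, 232 and 175 CPM in liver libraries 1, 2 and 3 and at 106, 137 and 125 CPM in blood libraries 1, 2 and 3, a log2 fold change of 0.78 ± 0.19 (SE, n = 3 and 3; edgeR adjusted p = 0.0141; lost without liver 1, blood 1 or blood 3, at 0.0516 to 0.0767). Ifnar2 was at 136, 139 and 96.8 CPM in liver and at 52.9, 77.4 and 77.6 CPM in blood, a change of 0.84 ± 0.23 (edgeR adjusted p = 0.0196; lost without liver 1, liver 2 or blood 1, at 0.0641 to 0.0847). Neither gene overlapped between tissues.

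Ifnlr1, the chain specific to type III interferon, was lower in liver, at 9.31, 10.3 and 8.34 CPM in liver libraries 1, 2 and 3 against 33.0, 32.5 and 32.5 CPM in blood libraries 1, 2 and 3. Its blood libraries were nearly equal, and the log2 fold change was -1.81 ± 0.23 (SE, n = 3 and 3; edgeR adjusted p = 0.0007), passed in all 16 alternatives. Il10rb, the chain it pairs with and shares with interleukin 10, was higher in liver (191 to 322 against 127 to 184 CPM, 0.73 ± 0.24, edgeR adjusted p = 0.0414), a call lost without liver 1, liver 2 or any 1 blood library (adjusted p from 0.0545 to 0.168). The type II receptor genes Ifngr1 and Ifngr2 did not pass (edgeR adjusted p = 0.295 and 0.186).

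Among the transcription factor genes listed for the pathway, Irf9 was lower in liver and Irf5 was higher. Irf9 was at 43.7, 75.5 and 45.7 CPM in liver libraries 1, 2 and 3 and at 96.9, 169 and 71.4 CPM in blood libraries 1, 2 and 3, liver 2 above blood 3 (log2 fold change -1.03 ± 0.34, edgeR adjusted p = 0.0471; lost without liver 1, liver 3, blood 1 or blood 2, at 0.0587 to 0.145). Irf5 was at 116, 119 and 117 CPM in liver and 49.5, 71.0 and 50.3 CPM in blood (1.05 ± 0.20, edgeR adjusted p = 0.0041). The kinase genes Jak1, Jak2 and Tyk2 did not pass (edgeR adjusted p = 0.185, 0.0565 and 0.756).

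Upstream of interferon, Tlr9, an endosomal sensor of DNA, and Ikbke, a kinase that activates interferon regulatory factors, were higher in liver. Tlr9 was at 41.9, 48.3 and 40.1 CPM in liver libraries 1, 2 and 3 and at 4.87, 5.42 and 4.15 CPM in blood libraries 1, 2 and 3 (log2 fold change 3.17 ± 0.24, edgeR adjusted p = 8.96e-05). Ikbke was at 93.9, 80.8 and 59.0 CPM in liver and at 6.24, 13.7 and 3.15 CPM in blood (3.35 ± 0.50, edgeR adjusted p = 0.0025). For both genes the lowest liver library lay far above the highest blood library, and both calls held in all 16 alternatives. Tbk1, the sister kinase of Ikbke, was at 101 to 111 CPM in liver and 60.1 to 79.5 CPM in blood (0.54 ± 0.18, edgeR adjusted p = 0.0475), a call lost when any 1 library was left out (adjusted p from 0.0781 to 0.152).

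Regulators that damp signalling did not move together. Ptpn2, a phosphatase that acts on JAK1, was at 62.8, 74.3 and 47.8 CPM in liver libraries 1, 2 and 3 and at 25.6, 22.3 and 25.8 CPM in blood libraries 1, 2 and 3 (log2 fold change 1.33 ± 0.22, edgeR adjusted p = 0.0024). Ptpn6 was lower in liver (481 to 800 against 1051 to 1171.5 CPM, -0.83 ± 0.24, edgeR adjusted p = 0.0245; lost without liver 1, liver 3, blood 1 or blood 3, at 0.0535 to 0.0876), as was Socs3 (268 to 284 against 320 to 1006 CPM, -1.17 ± 0.37, edgeR adjusted p = 0.038; lost without liver 1, 2 or 3 or blood 2, at 0.0875 to 0.113).

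**Figure D5:**
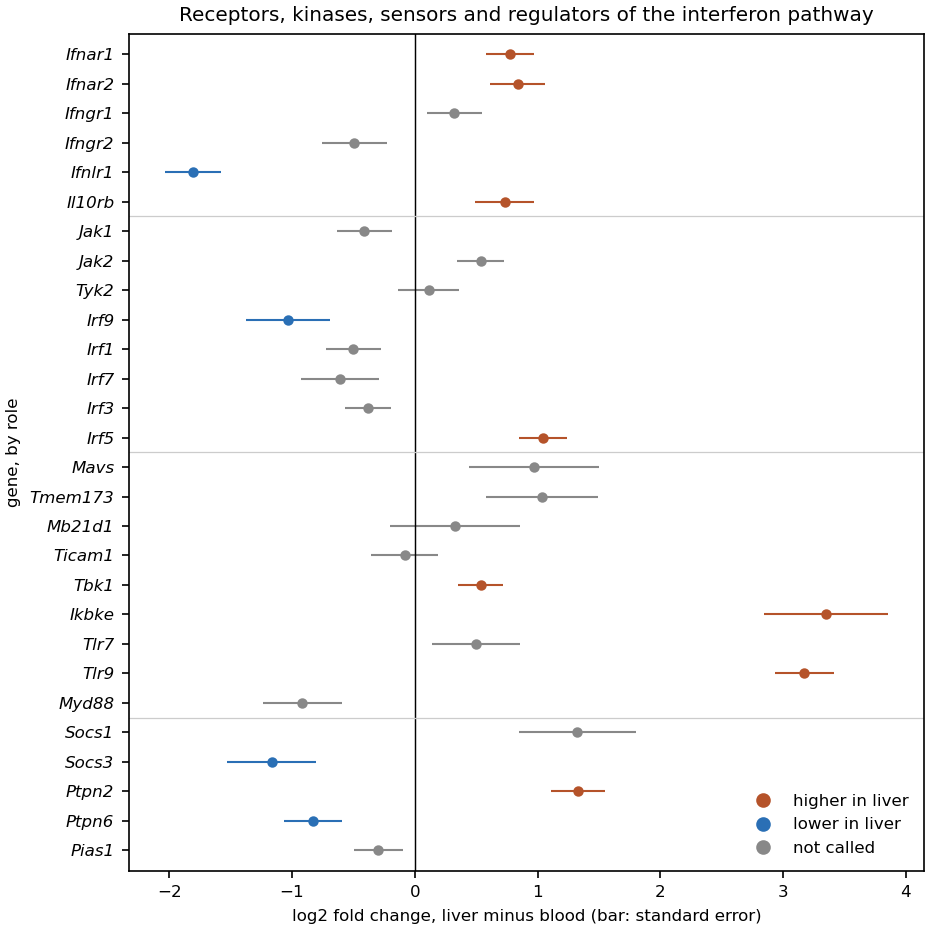
Log2 fold change of liver against blood, with the standard error as bar, for 28 tested receptors, signalling factors, upstream sensors and damping regulators of the interferon pathway; colour marks genes at an adjusted p of 0.05. Ikbke and Tlr9 stand at 3.35 and 3.17 and Ifnlr1 at -1.81.

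Among 49 further interferon-stimulated genes with enough counts, 6 rose (12.2%) and 10 fell (20.4%) in liver relative to blood. Of all rows, 17.4% were called higher and 14.2% lower. The largest called falls were those of Trim30b (122 to 233 against 503 to 842 CPM, log2 fold change -1.92 ± 0.30, edgeR adjusted p = 0.0020), Trim12c (-1.59 ± 0.29, 0.0040), Ddx60, a helicase that assists RIG-I (-1.56 ± 0.44, 0.0305; 0.0828 to 0.0988 without liver 1, liver 3 or blood 2) and Trim34a (-1.51 ± 0.24, 0.0019). Oas1c fell by 1.34 ± 0.38 (edgeR adjusted p = 0.0249; 0.0563 to 0.0697 without any 1 of liver 1, 2 and 3 and blood 1 and 2). The largest called rises were in genes at low blood levels: Ifi205 (0.961 to 2.95 against 0 to 0.143 CPM, 4.86 ± 1.11, edgeR adjusted p = 0.01; 79 and 2 counts, a ratio of 33.5 with an exact 95% interval of 8.96 to 281), Cxcl10, a chemokine that draws T cells (9.43 to 14.2 against 0 to 1.66 CPM, 4.37 ± 0.97, 0.012), and Ifi207 (85.3 to 116 against 5.83 to 17.5 CPM, 3.29 ± 0.42, 0.0011). Gbp8 (2.82 to 5.45 against 0.134 to 0.717 CPM, 3.19 ± 0.66, 0.0066) and Ifi211 (8.53 to 14.5 against 0.937 to 3.51 CPM, 2.36 ± 0.48, 0.0060) were higher too. Of these 49 genes, 30 were highest in liver 2, 31 in blood 2 and 21 in both, against 30 of the 41 in both above. The shares of all rows were 33.5%, 33.6% and 15.6%.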

How the data were processed

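Total RNA of Ly6G-selected neutrophils was sequenced with a stranded, low-input kit, per the labels' protocols. The authors deposited 1 table of RSEM expected counts per library; STAR, RSEM, limma, FastQC 0.11.5 and GRCm38 are named in the submitters' processing notes, while of the other versions and the strand setting nothing is stated there. Expected counts were taken to the nearest integer. The function filterByExpr of edgeR kept 13458 of 53090 rows. It asked for a CPM worth about 10 counts in at least 3 libraries, and a total of at least 15. Kept rows were scaled by TMM and tested with the quasi-likelihood F test of edgeR 4.0.16 in R 4.3.3, liver against blood without a block. Benjamini-Hochberg adjustment ran over all rows tested, and 0.05 was the threshold on that adjusted p. SE is the log2 fold change divided by the root of F. The test was checked on simulated data. CPM uses all rows. Between libraries of a tissue, counts differed beyond sampling noise, so none is a repeat of another. Coordinates are from GENCODE M21, which matched 98.9% of rows by identifier. Shared sequence was counted as 50-base words of the GENCODE transcripts found in another gene. The 43 genes, the lists of pathway genes and markers, and the alternatives were chosen with earlier results of these data known; the pathway genes named are, per list, those called at an adjusted p under 0.05, and of the further interferon-stimulated genes the 5 largest changes each way. Not every gene this rule picks is reported here. Alternatives were other scalings, filters and tools (DESeq2 1.42.0, limma-voom 3.58.1) and left-out libraries.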

Additional observations from a re-analysis of the deposited data

How the results depend on the processing

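The counts of called members depended on the setting. Against 3 higher and 5 lower, the lower count was 3 with upper-quartile factors and 10 without a filter on low counts or with DESeq2; it was 3 to 10 when 1 library was left out (3 without liver 1, liver 3 or blood 2, and 10 without liver 2 or blood 3) and 3 without liver 3 and blood 1 together. The higher count was 2 or 3 throughout. Mx1 (adjusted p at most 0.0294), Mx2 (0.0401), Irgm2 (0.0129) and Igtp (0.0403) were called in all 16 alternatives and Irgm1 in 15; Ifit3b was called in 7, Gbp7 in 11 and Bst2 in 4. DESeq2 added Cmpk2, Dhx58, Oas3, Oasl2 and Trim30a, and limma-voom Cmpk2. Of the members not called, Cmpk2 passed in 7 alternatives, Trim30a and Dhx58 in 4, Oasl2 and Ddx58 in 3, Oas3, Usp18, Herc6, Ifit3 and Rtp4 in 2, and Isg15, Oas2, Samd9l and Parp14 in 1. Labels give both tissues the numbers 1 to 3, and deviations of same-numbered libraries correlated at 0.0541, 0.156 and 0.0225. Liver 1 and liver 2 but not liver 3 correlated best with their own number. Correlations this weak cannot tell whether the numbers pair the samples. With a replicate block for the number, 3 members were called higher and 15 lower, a gain of 11 (Isg15 as higher, and Cmpk2, Ddx58, Dhx58, Ifit3, Oas2, Oas3, Oasl2, Rtp4, Samd9l and Trim30a as lower) and a loss of 1 (Bst2). Leaving out 1 library gave 19 to 36 negative fold changes and a median of -0.885 to 0.0036, reversed only without blood 2; without liver 2 and blood 2 together these were 27 and -0.39. Pathway genes called higher were 9 to 14 (9 without liver 1) and those called lower 8 to 17 (8 without liver 1, 9 without liver 3 or blood 2) in the same runs; without liver 3 and blood 1 together 7 were lower, and without liver 2 and blood 2 together, an alternative chosen after seeing the data, 8 were higher. Without the filter the median over all rows moved by 0.383.

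Of 1023 single-gene values under alternatives, 855 kept direction and side of the threshold, 86 lost and 35 gained the call, and 47 changed sign, all in members that were not called. Ranges of the log2 fold change on leaving out 1 library were, where the sign changed, Eif2ak2 -0.53 to 0.0048, Gbp2 -1.88 to 0.24, Gbp3 -0.69 to 1.45, Ifi204 -0.31 to 0.13, Ifi27l2a -0.32 to 0.56, Ifi35 -0.18 to 0.62, Ifih1 -0.48 to 0.00026, Ifit1 -0.89 to 0.47, Ifit2 -0.59 to 0.21, Oas1a -0.61 to 1.05, Oas1g -0.20 to 1.21, Oasl1 -0.36 to 0.91, Rsad2 -0.80 to 0.19, Samd9l -1.19 to 0.0036, Stat2 -0.43 to 0.0381, Xaf1 -0.62 to 0.46 and Zbp1 -1.34 to 0.32. Other sign changes were Gbp3 0.58 (replicate block), 0.70 (limma-voom) and 1.39 (without liver 2 and blood 2), Oas1a 0.22, 0.33 and 0.49 in those settings, 0.0743 with upper-quartile factors, 0.0029 with a minimum of 1 CPM and 0.0761 without liver 3 and blood 1, Ifit2 0.0026 (upper quartile), 0.0095 (limma-voom) and 0.14 (without liver 3 and blood 1), Ifi204 0.017 (upper quartile), Xaf1 0.0265 (limma-voom), and, without liver 2 and blood 2, Ifi204 0.16, Stat2 0.12 and Xaf1 0.58. The causes were not tested. The bounds for Iigp1 and Mx2 without 1 library were added after seeing the data. Summing the rows of a symbol changed nothing, since each member has 1 row. With 3 libraries a tissue and few counts in blood for Mx1, Mx2, Iigp1 and Bst2, small differences may go undetected.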
